A study of Mus musculus with 18 samples.

Results

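The Nkx2-1 locus on mouse chromosome 12 was examined for H3K27me3, the trimethyl mark that the Ezh2-containing polycomb complex places on histone H3. The locus was taken as 5 protein-coding genes of 21627 in the annotation (Mbip, Nkx2-1, Nkx2-9, Pax9 and Slc25a21) and the 3 gaps between them. All intervals of deposited signal over these genes, each extended by 2.5 kb on both sides, or in the gaps were used. They came to 157 of the 98434 intervals that the authors listed for 12 libraries. The genes were chosen by measured values: the interval counts at Nkx2-1 and the stretch next to it had already been seen to be higher in Ezh2 knockout (KO) than in wild-type (WT) tissue at E12.5. The differences between KO and WT are therefore described with their values and carry no test.

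Bulk CUT&Tag, in which an antibody-tethered transposase cuts and tags the DNA beside a chromatin mark, was run on nuclei of the medial ganglionic eminence (MGE), the ventral part of the embryonic telencephalon that produces many cortical interneurons. The libraries fell into 4 groups of 3, E12.5 WT, E12.5 KO, E15.5 WT and E15.5 KO, and 6 libraries of heterozygous embryos were not analysed here. KO embryos are labelled Nkx2.1-Cre C/+, Ai9 F/+ and Ezh2, without the Ezh2 alleles being spelled out. In the cross, males homozygous for Nkx2.1-Cre and females homozygous for the Ai9 tdTomato reporter, both Ezh2 F/+, were mated, so WT and KO embryos alike received 1 copy of the driver and 1 of the reporter. Nkx2.1-Cre acts in cells that have switched on Nkx2-1, and other cells of the dissected tissue keep Ezh2. The locus described here is thus also the one whose activity the driver follows. The labels do not say how the driver was built, and reads from any Nkx2-1 sequence carried by it cannot be told apart from reads of the native locus. MGEs of embryos of 1 genotype were pooled where applicable. The entire MGE was taken at E12.5, but at E15.5 the Tomato-positive MGE was dissected under fluorescence, so stage and dissection cannot be told apart. The labels number the libraries as biological replicates without naming litters, and the spread below is that between these libraries.

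Nkx2-1 encodes the homeodomain factor that gives MGE progenitors their identity. Genes that are silent in a tissue often lie in broad H3K27me3 domains, and active genes are largely free of the mark. Nkx2-9 encodes a related homeodomain factor best known in the ventral spinal cord, and Pax9 a paired-box factor of pharyngeal pouches, teeth and skeleton. Mbip encodes a regulatory protein of the MAP3K12 kinase and a component of the ATAC acetyltransferase complex, and Slc25a21 a mitochondrial carrier of oxodicarboxylates.

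The genes lie in the order Mbip (chr12:56328306-56345933, minus strand), Nkx2-1 (chr12:56531935-56536908, minus), Nkx2-9 (chr12:56611389-56613569, minus), Pax9 (chr12:56691693-56712824, plus) and Slc25a21 (chr12:56712634-57197472, minus) in GRCm38. The bodies of Pax9 and Slc25a21 overlap by 191 bp at their 3′ ends. An annotated start site from the RefSeq promoter entries on GRCm38.p6 was used for each of 4 genes. For Nkx2-9, Pax9 and Mbip this site lies inside the gene body given above and not at its outer end. The bases printed for Nkx2-9 and Pax9 are therefore within their gene bodies, and those of Mbip partly so. The 250 bases before these start sites are shown because they span the range from a start marked in every library to a start never marked. They lie at chr12:56536909-56537158 (Nkx2-1, minus strand), chr12:56613285-56613534 (Nkx2-9, minus), chr12:56695221-56695470 (Pax9, plus) and chr12:56345895-56346144 (Mbip, minus), are written 5′ to 3′, and carry each CG dinucleotide in capitals.
Nkx2-1: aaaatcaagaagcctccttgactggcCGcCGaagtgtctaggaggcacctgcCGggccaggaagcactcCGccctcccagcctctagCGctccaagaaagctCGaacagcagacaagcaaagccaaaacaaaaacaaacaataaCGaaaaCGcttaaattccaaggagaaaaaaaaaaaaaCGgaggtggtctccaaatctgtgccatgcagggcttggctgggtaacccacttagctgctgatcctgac
Nkx2-9: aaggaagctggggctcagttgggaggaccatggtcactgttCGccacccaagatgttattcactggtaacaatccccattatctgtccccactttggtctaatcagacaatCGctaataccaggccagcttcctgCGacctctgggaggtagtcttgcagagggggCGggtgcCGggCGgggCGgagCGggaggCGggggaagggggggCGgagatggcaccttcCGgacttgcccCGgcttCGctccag
Pax9: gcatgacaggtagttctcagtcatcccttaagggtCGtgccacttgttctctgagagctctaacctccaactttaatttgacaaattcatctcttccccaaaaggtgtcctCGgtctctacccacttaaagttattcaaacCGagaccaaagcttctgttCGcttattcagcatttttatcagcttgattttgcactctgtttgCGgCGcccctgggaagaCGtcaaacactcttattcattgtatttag
Mbip: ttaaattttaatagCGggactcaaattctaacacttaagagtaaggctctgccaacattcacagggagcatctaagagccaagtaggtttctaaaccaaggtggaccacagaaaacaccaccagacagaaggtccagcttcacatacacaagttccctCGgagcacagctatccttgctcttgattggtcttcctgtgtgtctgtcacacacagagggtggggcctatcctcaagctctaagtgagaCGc
The upstream bases of Nkx2-9 held 13 CG dinucleotides, those of Nkx2-1 held 9, those of Pax9 held 7 and those of Mbip held 3. Slc25a21 had 4 in its upstream bases at chr12:57197473-57197722. CG, which reads the same on both strands, occurred at least that often in 31.5% (Nkx2-9), 40.3% (Nkx2-1), 46.3% (Pax9), 71.0% (Mbip) and 62.2% (Slc25a21) of 32851 promoter entries of the same length. An H3K27me3 interval lay over the printed bases of Nkx2-1, Nkx2-9 and Pax9 in 12 of 12 libraries, over those of Slc25a21 in 11 and over those of Mbip in none. Another Slc25a21 promoter entry, at chr12:57160644-57160893, held 2 CG and had no interval over it in any library. In this row of genes the 3 with the most CG were the 3 marked in every library, which is a description of these promoters and was not tested.

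The 157 intervals merged into 14 regions across libraries. Of these, 4 were present in all 12 libraries and 1 in 11, and the other 9 were found in at most 7 libraries, with a depth-scaled count of no more than 43.3. A depth-scaled count is the deposited count multiplied by the mean depth of the 12 libraries and divided by the depth of its own library. The Nkx2-1 domain (chr12:56501401-56544800, 43.4 kb) held the gene, its start and a long flank on the 3′ side. A separate stretch (chr12:56444601-56487800, 43.2 kb) ended 44.1 kb beyond the 3′ end of Nkx2-1, inside the gap towards Mbip and 98.7 kb from it. The Nkx2-9 domain (chr12:56600601-56630600) was 30.0 kb long and the Pax9 domain (chr12:56674001-56723000) 49.0 kb. Between the Nkx2-1 and Nkx2-9 domains 55.8 kb held no region common to all libraries.

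**Figure D1:**
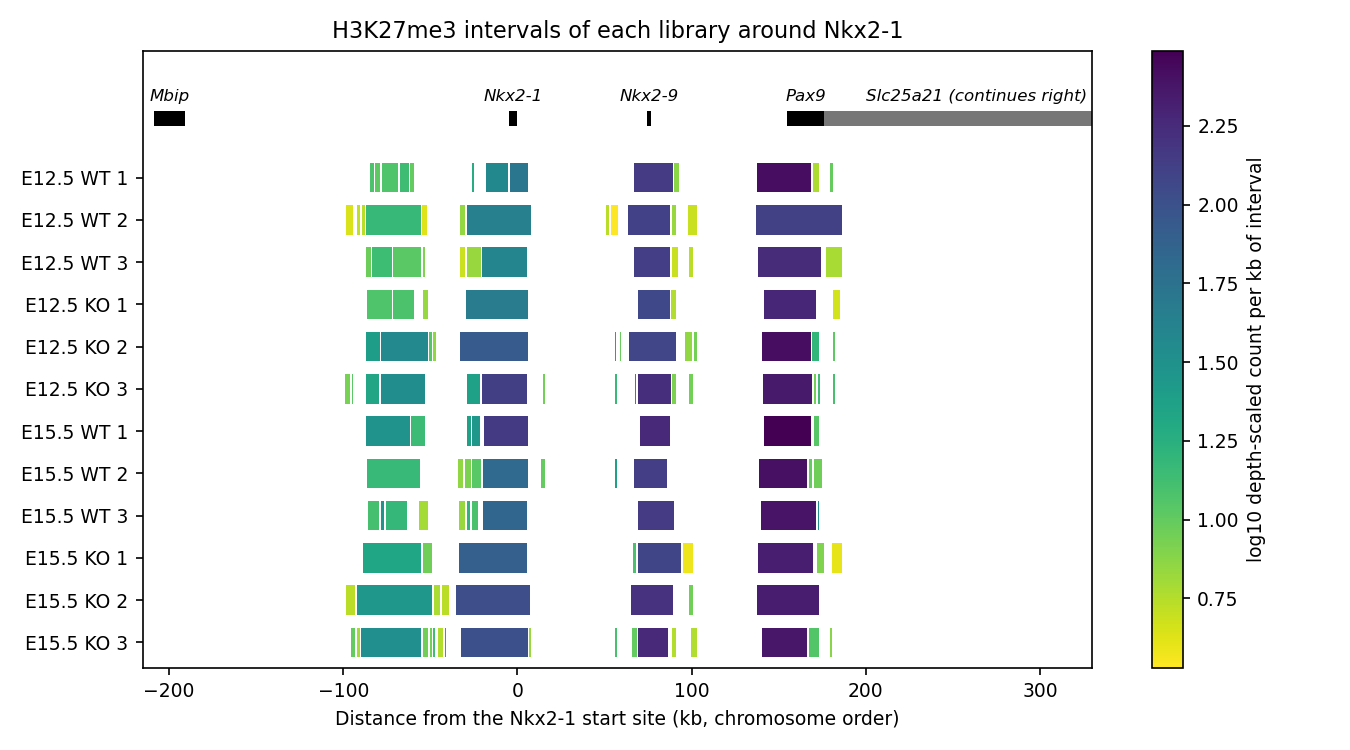
Intervals of each of the 12 libraries (rows) against distance from the Nkx2-1 start site in kb, in chromosome order, coloured by log10 of the depth-scaled count per kb of interval, with gene bodies on top. Every library has intervals in the same 4 blocks, some libraries have weaker ones outside them, and Mbip has none. In the 3 E15.5 KO libraries 1 unbroken interval reaches 32.5 to 35.5 kb to the left of the Nkx2-1 start. The start region of Slc25a21 lies beyond the right edge and is not shown.

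Depth differed widely between libraries. They held 5008 to 13289 intervals with 573838 to 6846250 counts, and the depth recovered from the caller's scores was 0.0751 to 0.698 reads per 200 bp window, lowest in E15.5 WT replicate 1 and highest in E12.5 WT replicate 2. At E15.5 every WT library (0.0751 to 0.150) was shallower than every KO library (0.179 to 0.346). Of 5 housekeeping genes, Actb, Gapdh, Tbp and Hprt had no interval in any library, and Rpl13a had a small one in 7. The tissue label rests on expression, which was not measured. The ventral telencephalon genes Dlx1, Dlx2 and Lhx6 were marked in all 12 libraries. The 6 dorsal genes examined (Emx1, Emx2, Neurog1, Neurog2, Tbr1 and Eomes) were marked in all 12. Ezh2 itself had no interval, so these data do not check its deletion.

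In WT MGE at E12.5 the Nkx2-1 domain was the weakest of the 3 gene domains. Its scaled counts were 1048, 1642 and 1089 in replicates 1 to 3, a mean of 1260 ± 332 (SD, n = 3). The Nkx2-9 domain had 3056 ± 208 and the Pax9 domain 7018 ± 1135 in the same libraries. Per kb covered by intervals, the order was the same, with 37.9 ± 7.20 for Nkx2-1, 120 ± 3.67 for Nkx2-9 and 167 ± 55.2 for Pax9, and the 3 domains did not overlap. Nkx2-9 and Pax9 were close, the lowest Pax9 value being 129 and the highest Nkx2-9 value 124. The Nkx2-1 promoter thus lay in a domain even in WT tissue. In bulk tissue, a domain in fewer cells and a weaker domain in each cell cannot be told apart.

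At E12.5 the Nkx2-1 domain held more counts in KO than in WT tissue. The KO libraries had scaled counts of 1697, 3345 and 3605, a mean of 2883 ± 1034 (SD, n = 3), which is 2.29-fold the WT mean. All 3 KO values lay above all 3 WT values, although KO replicate 1 exceeded WT replicate 2 by only a small margin. The deposited counts behind them were 473, 4412 and 2014 in WT and 1386, 3506 and 3374 in KO. The mean difference on the log2 scale was 1.15, and leaving out 1 library at a time gave 0.95 to 1.49.

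The stretch on the 3′ side showed the same order of group means with more overlap. Its scaled counts were 255, 494 and 360 in E12.5 WT and 334, 1210 and 997 in E12.5 KO, so KO replicate 1 lay within the WT range and the other 2 KO libraries above it. The ratio of means was 2.29. Without KO replicate 1 the mean log2 difference was 1.62 instead of 1.05, and leaving out 1 library at a time gave 0.69 to 1.62. The stretch holds none of the 5 genes.

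In the domains of the neighbours KO and WT libraries overlapped at E12.5. In the Nkx2-9 domain the KO libraries had 2104, 3301 and 3277 against 3160, 3192 and 2816 in WT, and the groups overlapped with a ratio of means of 0.947. In the Pax9 domain they had 5728, 7451 and 6471 against 8327, 6300 and 6427, with a ratio of 0.933. The covered length of the Pax9 domain was shorter in E12.5 KO, at 34.0, 33.2 and 32.2 kb, than in E12.5 WT, at 36.2, 49.0 and 45.4 kb. The values of 49.0 and 45.4 kb came from the deepest libraries, with 0.698 and 0.481 reads per 200 bp window. The part of depth in this difference was not tested, and other regions were not counted.

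**Figure D2:**
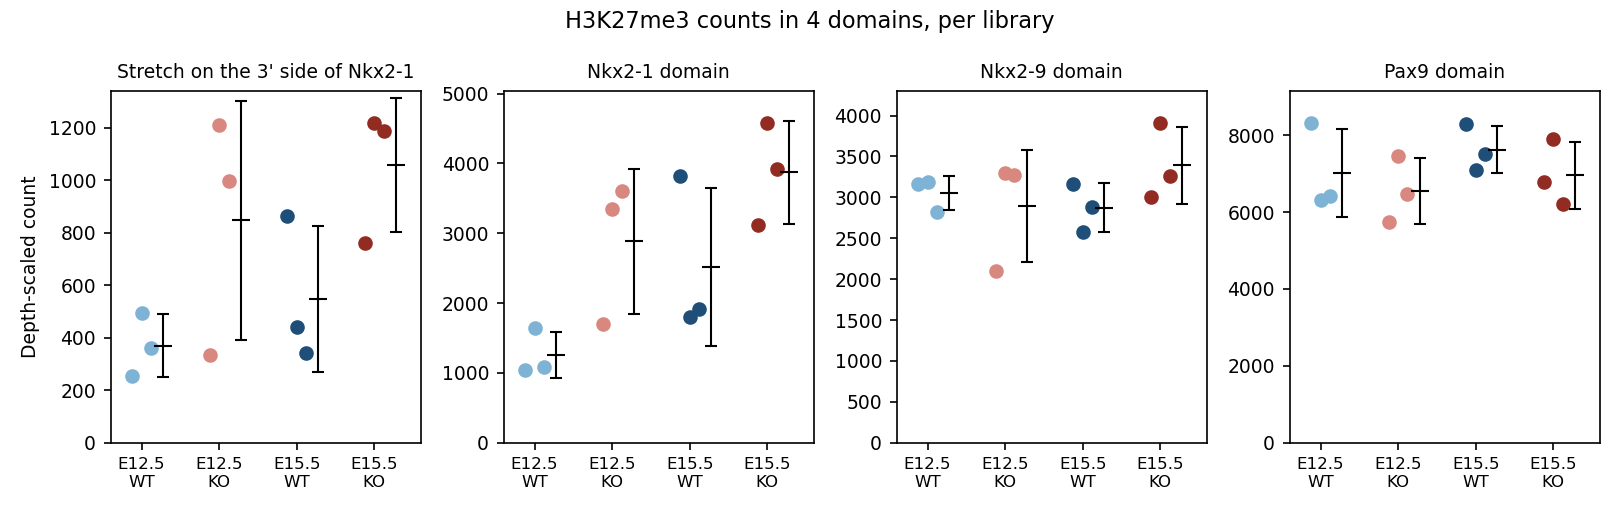
Depth-scaled count (vertical axis) of 4 domains in each library, by stage and genotype. Points are libraries and bars give the mean and SD of 3; at E12.5 the 3 KO points of the Nkx2-1 domain lie above the 3 WT points, and in the Nkx2-9 and Pax9 domains the groups overlap.

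The Pax9 domain, itself an H3K27me3 domain of this locus, served as a reference within each library, independent of the depth estimate. The count of the Nkx2-1 domain was 12.6%, 26.1% and 16.9% of the Pax9 domain count in E12.5 WT, and 29.6%, 44.9% and 55.7% in E12.5 KO. The groups again did not overlap, and the mean log2 difference on this scale was 1.25. The Nkx2-9 domain was 37.9%, 50.7% and 43.8% of Pax9 in WT and 36.7%, 44.3% and 50.6% in KO, with overlap. At E15.5 the Nkx2-1 domain was 46.0%, 25.5% and 25.5% in WT and 46.0%, 58.1% and 63.2% in KO, so that replicate 1 of each met. On this scale the Nkx2-9 domain did separate the E15.5 groups, with 38.2%, 36.4% and 38.4% in WT and 44.4%, 49.6% and 52.6% in KO.

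**Figure D3:**
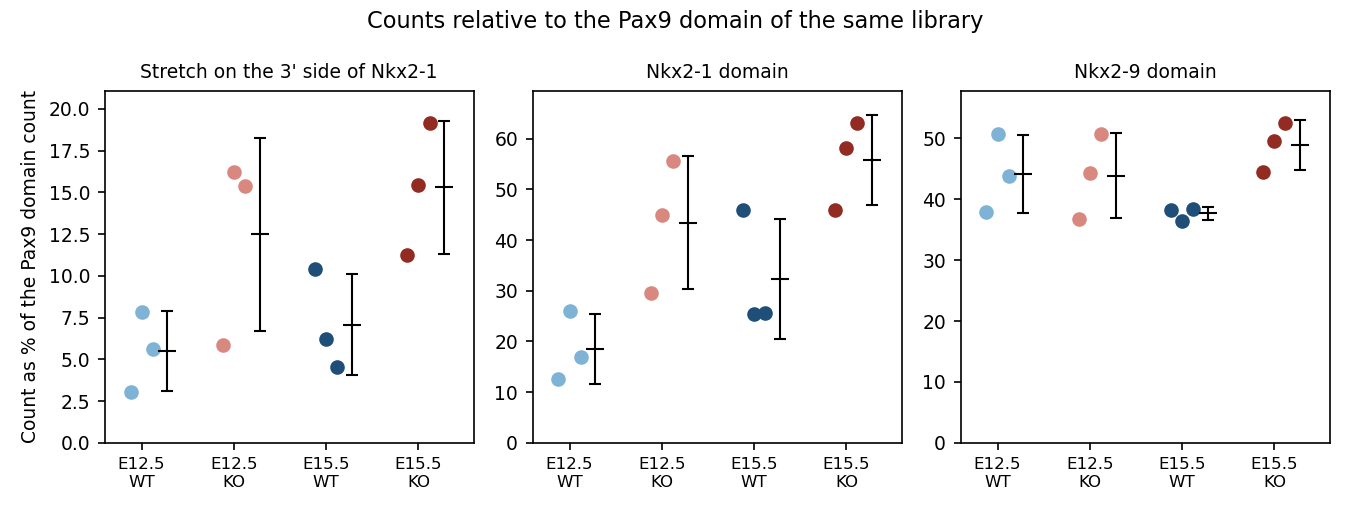
Count of 3 domains as a percentage of the Pax9 domain count in the same library (vertical axis), by stage and genotype. Points are libraries and bars the mean and SD of 3; the Nkx2-1 domain has means of 18.5 ± 6.87% (WT, E12.5) to 55.8 ± 8.85% (KO, E15.5), while the Nkx2-9 domain lies between 36.4% and 52.6% throughout.

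At E15.5 the Nkx2-1 domain had scaled counts of 3815, 1804 and 1914 in WT and 3113, 4586 and 3917 in KO. The ratio of means was 1.54, and 2 of 3 KO libraries lay above every WT library. WT replicate 1, the shallowest library, was the WT value that overlapped, with 1103 deposited counts. Without it the mean log2 difference was 1.04 instead of 0.70, and leaving out 1 library at a time gave 0.50 to 1.04. The 3′ stretch had 865, 440 and 341 in WT and 763, 1220 and 1189 in KO, and WT replicate 1 again lay among the KO values. The mean log2 difference of the stretch was 1.03, and 0.75 to 1.42 with 1 library left out. The Nkx2-9 and Pax9 domains had ratios of means of 1.18 and 0.912 with overlap between the groups.

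The E15.5 groups did not overlap in the length of the Nkx2-1 domain. It was covered over 39.0, 43.0 and 39.4 kb in E15.5 KO and over 32.0, 36.8 and 34.2 kb in E15.5 WT. The single interval over the Nkx2-1 start site reached 33.3, 35.5 and 32.5 kb towards the 3′ side in KO, and 19.1, 19.9 and 19.9 kb in WT. Upstream of the start it reached 5.70 to 7.50 kb in KO and 5.70 to 5.90 kb in WT, the 7.50 kb being that of KO replicate 2, so that most of the added length lay on the 3′ side. In the 3 WT libraries the DNA beyond was held by separate, shorter intervals. The Nkx2-9 domain was also longer, at 26.6, 24.0 and 22.0 kb in KO and 17.2, 19.0 and 20.6 kb in WT, and the Pax9 domain overlapped, at 41.0, 36.0 and 33.0 kb and 29.6, 34.0 and 31.8 kb. The E15.5 WT libraries were all shallower than the KO libraries, and the part of depth in these lengths was not tested. Over the genome, intervals covered 21.2 to 39.3 Mb in E15.5 WT and 32.4 to 45.0 Mb in E15.5 KO libraries. How many other regions separated by length in the same way was not counted, so these lengths are not shown to be particular to this locus.

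At E12.5 the reach of that interval was less regular. In KO it extended 29.7, 33.1 and 20.1 kb to the 3′ side, and in WT 4.50, 29.1 and 20.1 kb. The deepest library, E12.5 WT replicate 2, thus had a reach within the range of the KO libraries. The 3′ stretch was longer in E15.5 KO, covering 38.6, 43.0 and 40.4 kb against 32.6, 30.0 and 25.0 kb in WT. The same limits hold for this length, as the E15.5 WT libraries were shallower and other regions were not counted.

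**Figure D4:**
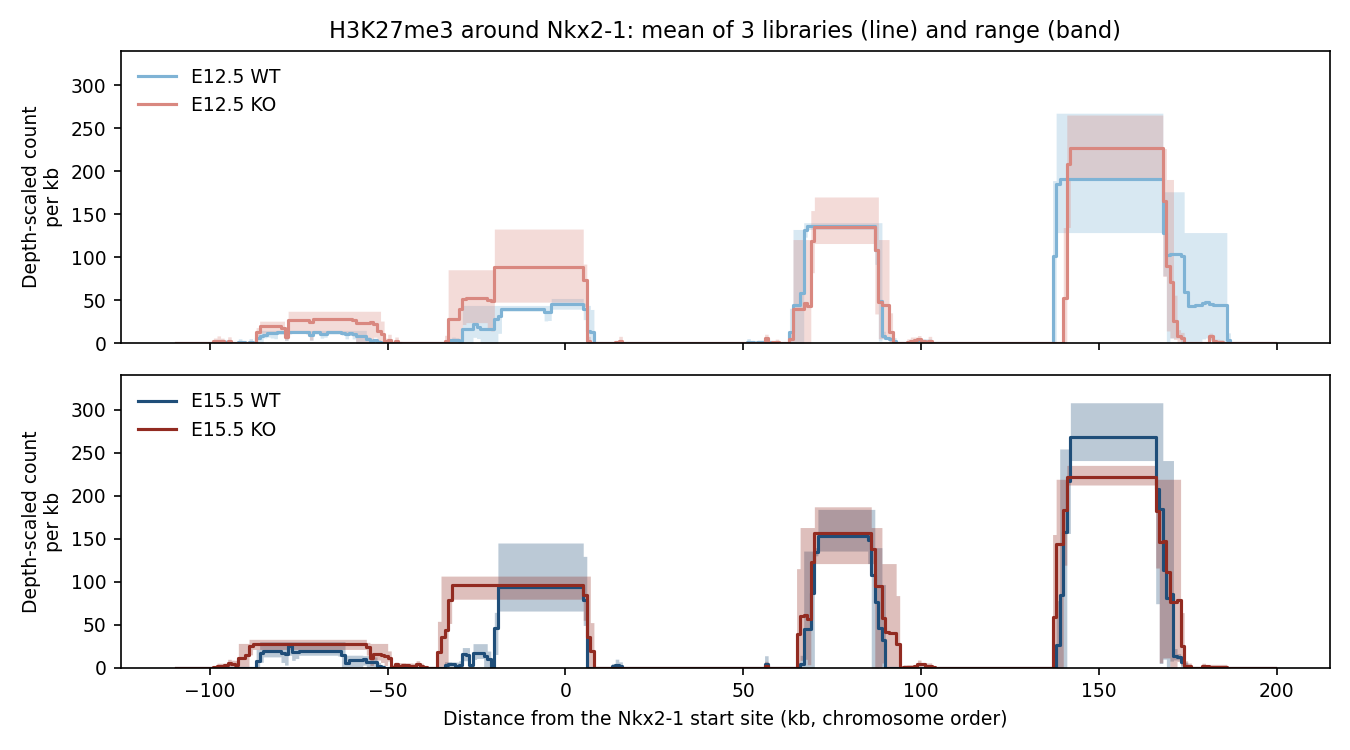
Depth-scaled count per kb in 1 kb bins against distance from the Nkx2-1 start site in kb, with each interval's count spread evenly over its length; lines are means of 3 libraries and bands their range (upper panel E12.5, lower panel E15.5). At E15.5 the KO line drops at about the 3′ interval ends of 32.5 to 35.5 kb, and the WT line at those of 19.1 to 19.9 kb. A flat line within an interval follows from the even spread and does not show the level of signal along it.

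A test across many regions needs the same window in each library, and gene windows (the gene body and 2.5 kb on each side) and the gaps were used for it. Intervals give 1 count each, so the count was shared out by the bases inside the window, and where within an interval the reads lay is unknown. Of the 8 windows of the locus, 6 had an interval in every library and were tested among 2494 autosomal windows, and Mbip and Slc25a21 were not. The Mbip window was at 0 in all 12 libraries. The Slc25a21 window was raised by the end of the Pax9 domain in E12.5 WT replicates 2 and 3, with scaled counts of 1786 and 339 against 69 in replicate 1. The start region of Slc25a21 held 23, 267 and 145 deposited counts in E12.5 WT and 25, 48 and 48 in E12.5 KO. Scaled for depth, these were 51.0, 99.3 and 78.4 in WT and 30.6, 45.8 and 51.3 in KO, with overlap. At E15.5 the region held 0, 13 and 13 deposited counts in WT and 25, 23 and 41 in KO. Scaled, these were 0, 26.1 and 22.5 in WT and 36.4, 27.7 and 30.8 in KO, all from few counts.

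For the KO against WT differences of the windows, the fitted log2 values at E12.5 were 1.05 (SE 0.33) for Nkx2-1 and 1.31 (SE 0.34) for the gap between Mbip and Nkx2-1. This gap holds the 3′ flank of the Nkx2-1 domain as well as the separate stretch, so it shares intervals with the Nkx2-1 window. Its E12.5 groups overlapped, with scaled counts of 681, 1479 and 929 in WT and 1394, 3409 and 2883 in KO. The Nkx2-9 and Pax9 windows had fitted log2 values of -0.01 and 0.03, while the median of all 2494 windows was -0.51. TMM scaling moved that median to -0.01 and gave 1.49 for Nkx2-1, 0.49 for Nkx2-9 and 0.56 for Pax9, and DESeq2 gave 1.51, 0.51 and 0.58. The 3 KO values exceeded the 3 WT values in 5 windows (0.200%), namely Nkx2-1, Shh, Gsx2, Csmd2 and Hrh1, of which the last 3 are named after their values were seen, and they lay below in 28.2%. Because this contrast chose the genes, nothing is read from that count. At E15.5 the log2 values were 0.04 (SE 0.32) for Nkx2-1 and 1.01 (SE 0.34) for the gap, beside a median of -0.03. The gap had scaled counts of 2740, 1362 and 1319 in WT and 2824, 4281 and 3794 in KO. These groups did not overlap, KO replicate 1 exceeding WT replicate 1 by only a small margin. Among all windows 9.98% were wholly higher and 8.58% wholly lower in KO.

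The E15.5 value at Nkx2-1 depends on how an interval is counted. With the whole count of every interval touching the window it was 0.70, and with regions merged across libraries, an alternative chosen after the data were seen, 0.63. Shared out by bases, a longer interval leaves a smaller part of its count in the window, and its part in these differences was not tested. Without WT replicate 1 the shared-out value was 0.49, and leaving out 1 library at a time gave -0.17 to 0.49. At E12.5 the Nkx2-1 value was lowest, at 0.64, without KO replicate 3, and between 1.00 and 1.51 in the other alternatives.

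**Figure D5:**
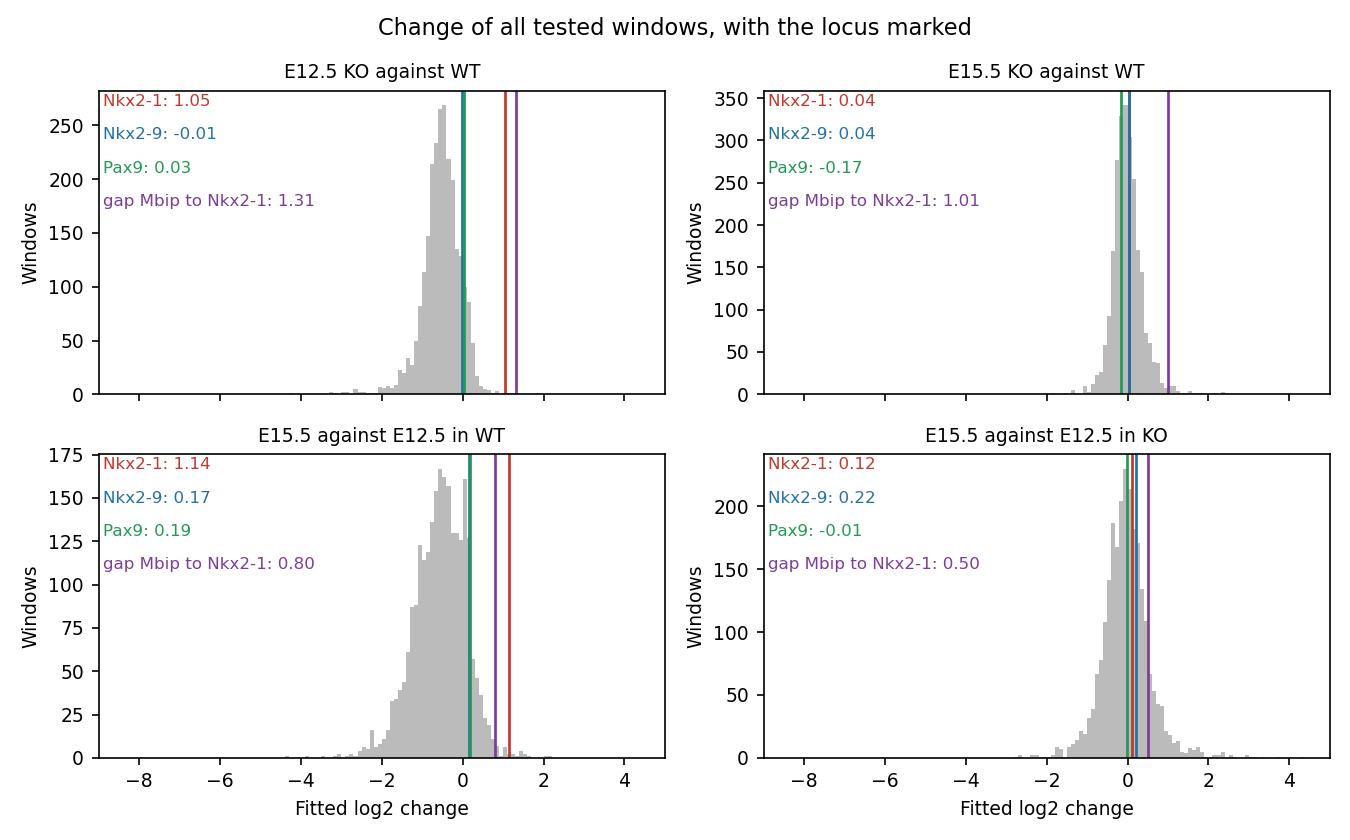
Number of windows (vertical axis) against fitted log2 change for all 2494 tested windows in 4 comparisons, with 4 windows of the locus as coloured lines. At E12.5, KO against WT, and between stages in WT, Nkx2-1 lies far to the right of the medians of -0.51 and -0.52, and between stages in KO it lies at 0.12.

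The change from E12.5 to E15.5 within a genotype was tested by edgeR's quasi-likelihood test over all 2494 windows. In WT tissue the Nkx2-1 window had higher counts at E15.5. Its scaled counts were 445, 438 and 394 at E12.5 and 1448, 659 and 709 at E15.5, so the stages did not overlap, as in 3.61% of all windows for higher and 46.1% for lower values at E15.5. The fitted log2 change was 1.14 (SE 0.33, adjusted p = 0.0138). It was the only one of the 6 windows called, beside 30 windows called higher (1.20%) and 756 called lower (30.3%) among all, where the median log2 change was -0.52. The E12.5 WT libraries are also those of the E12.5 KO against WT difference, so the 2 differences at Nkx2-1 share them. Nkx2-1 was chosen where these libraries were low against KO, which favoured a higher value at E15.5, so its adjusted p is not independent of the choice and supports nothing. As a percentage of the Pax9 domain count, the Nkx2-1 domain overlapped between the WT stages, and 1 of 3 E15.5 values lay above all E12.5 values. The depth of the WT libraries was 0.117, 0.698 and 0.481 at E12.5 and 0.0751, 0.129 and 0.150 at E15.5, and its part in the change was not tested.

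The call at Nkx2-1 rests on E15.5 WT replicate 1, since without it the log2 change was 0.69 with an edgeR adjusted p of 0.140. It was called in the other 22 of 23 alternatives, with edgeR and DESeq2 adjusted p up to 0.0485. Scaling by trimmed means (TMM), which moves the median of all windows from -0.52 to 0.01, gave 293 windows higher and 345 lower, and the Nkx2-1 change was 1.66.

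The gap towards Mbip had a log2 change of 0.80 between stages in WT (edgeR adjusted p = 0.0734) and did not pass. It passed in 6 of the 23 alternatives. The Nkx2-9 and Pax9 windows had changes of 0.17 (edgeR adjusted p = 0.588) and 0.19 (adjusted p = 0.468), and under TMM scaling 0.68 for each, with edgeR adjusted p of 0.0296 and 0.0508. With DESeq2 and its own size factors both were called, at 0.71 each with adjusted p of 0.0127 and 0.0171. The gaps between Nkx2-1 and Nkx2-9 and between Nkx2-9 and Pax9 had -0.36 and 0.16.

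In KO tissue none of the 6 windows was called between the stages, beside 3.73% called higher and 3.37% lower among all windows. The Nkx2-1 window had 476, 851 and 1323 at E12.5 and 796, 1064 and 1016 at E15.5, and the stages overlapped (11.0% of all windows were wholly higher and 12.6% wholly lower at E15.5). Its log2 change was 0.12 (SE 0.32, edgeR adjusted p = 0.883). Nkx2-1 was chosen where the E12.5 KO libraries were high against WT, which favoured a smaller change here, so this p is not independent of the choice either. The other windows had changes between -0.01 for Pax9 and 0.50 for the gap towards Mbip, with edgeR adjusted p of 0.409 to 0.975. Whether the change between stages differed between WT and KO was not tested.

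The windows whose counts varied most like that of Nkx2-1 were ranked by Pearson's r of log2 scaled counts over the 12 libraries among 2406 windows on other chromosomes. They were Shh (0.844), the sonic hedgehog ligand that induces Nkx2-1 in the ventral telencephalon, the zinc finger factor gene Egr4 (0.776), the POU factor gene Pou3f1 (0.753), the homeobox gene Otx1 (0.737) and the neurexophilin gene Nxph4 (0.731). The libraries share depth and group structure, so these are descriptions of the 12 points. Shh had scaled counts of 1006, 1104 and 1039 in E12.5 WT and 1184, 1609 and 1902 in E12.5 KO, without overlap. The values at the later stage were 1425, 1111 and 1264 for WT and 1343, 1935 and 1461 for KO, with overlap. Its fitted log2 difference between KO and WT was 0.58 at E12.5 and 0.32 at E15.5.

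Among 16 genes of the Nkx2-1 pathway in the MGE (hedgehog signalling, Nkx2-1 targets and interneuron genes), 10 were tested. Between stages in WT, 3 fell and none rose by edgeR, namely Gli2 (log2 change -0.60, adjusted p = 0.0379), a hedgehog transcription factor, Lhx6 (-0.62, adjusted p = 0.0227), a direct target of Nkx2-1 in interneuron precursors, and Satb1 (-1.04, adjusted p = 0.0214), a chromatin organiser of maturing interneurons. That is 3 of 10, near the 30.3% of all windows called lower, and so no result about the pathway. In KO, 1 of the 10 rose, beside 3.73% of all windows, namely Maf (1.61, edgeR adjusted p = 0.0113), another interneuron factor. The median log2 change of the 10 was -0.20 in WT and 0.10 in KO, beside -0.52 and -0.05 over all windows. At E12.5, KO values lay wholly above WT in 1 of the 10 (Shh) and wholly below in 4, beside 0.200% and 28.2% of all windows.

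Genes beyond the locus and relatives of its members were compared in the same way. Within 1 Mb of Nkx2-1, of 6 further genes, Insm2 and Ralgapa1 were marked in all 12 libraries, Brms1l in 8, Prps1l3 and Mipol1 in 4 and Aldoart2 in none, and neither of the first 2 was called. Nkx2-2, Nkx2-4 and Pax1 form a related row of NK2 and Pax genes on chromosome 2. All 3 were marked in all 12 libraries, and their fitted log2 differences between KO and WT at E12.5 were 0.10, -0.04 and 0.15, with none called between stages. Of 5 other NK2 and NK6 genes none was called between stages in either genotype. Among all windows 1.20% were called higher and 30.3% lower in WT, and 3.73% and 3.37% in KO. Nothing is read from these small counts of genes. Of 7 other Pax genes 6 were tested, and Pax8 rose between stages in KO (log2 change 0.78, edgeR adjusted p = 0.0280), beside 3.73% of all windows called higher.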

How the data were processed

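H3K27me3 CUT&Tag libraries of mouse MGE were analysed from the interval lists the authors deposited for 12 libraries (3 per group). Each interval has a count, which the authors deposited as whole reads per interval, and a score, also deposited by the authors. The submitters' processing notes name cutadapt, Bowtie2, SAMtools, Picard, deepTools and SICER, and the builds GRCm38 and mm10. The caller's settings and whether a control library entered are not given in the sources used here. The members and lists were chosen with earlier results of these data known.

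Depth per 200 bp window was recovered from single-window intervals with scores under 1000, as the rate at which the Poisson probability of the count gives the score (largest misfit 0.00407). The library size of the fits was set in proportion to it, since totals over called intervals move with what was called. Genes came from the RefSeq table for GRCm38. A window was a gene body with 2.5 kb on each side, or a gap, and interval counts were shared out by bases and rounded. Windows needed an interval in all 12 libraries and an autosome. edgeR 4.0.16 in R 4.3.3 fitted all 4 groups together with Benjamini-Hochberg adjustment at 0.05. The standard error is the log2 change divided by the square root of F. On simulated data with 200 of 2494 windows changed 2-fold, 34.5% were recovered with 4 false calls, so windows that were not called may have changed. Named genes were the members, other genes within 1 Mb of Nkx2-1, fixed lists of related and pathway genes, and the 5 windows most like Nkx2-1. Some genes of the marker lists are not reported here. Alternatives were TMM scaling, DESeq2 1.42.0, other filters and windows, whole interval counts, a replicate block, each library left out, and, added after the data were seen, merged regions and, for the domain counts, each library left out and scaling to the Pax9 domain.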

Additional observations from a re-analysis of the deposited data

How the results depend on the processing

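Across 23 alternative settings, 248 of 272 stage changes of single windows kept their direction and side of the threshold. Of 272 KO against WT values, which carry no test, 244 kept their sign and 28 did not. Nkx2-1 and the gap towards Mbip kept theirs at E12.5 in all 23, and Nkx2-1 at E15.5 in 19 of 23. The number of windows called between stages in WT was 786, and 437 to 994 with 1 library left out (the low values of 437, 447 and 465 came on omission of replicate 1 of E15.5 WT, replicate 2 of E12.5 WT and replicate 2 of E15.5 WT). In KO it was 177, and 424 with TMM, 511 with DESeq2, 431 with merged regions and 99 to 233 with 1 library left out. The E15.5 KO against WT value at Nkx2-1 was 0.04, and 0.70 with whole counts, 0.63 with merged regions and -0.17 to 0.49 with 1 library left out. At E12.5 it was 0.64 to 1.35 with 1 library left out. The cause of these changes was not tested.

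Stage changes that reversed were not called, with edgeR or DESeq2 adjusted p of 0.236 or more. Between stages in WT these were Nkx2-9 with whole counts (-0.079) and merged regions (-0.088), the gap between Nkx2-1 and Nkx2-9 with TMM (0.18), DESeq2 (0.21) and whole counts (0.36), and the gap between Nkx2-9 and Pax9 without E12.5 WT replicate 2 (-0.00055). In KO they were Nkx2-1 without E12.5 KO replicate 1 (-0.18), Pax9 with whole counts (0.087), merged regions (0.086) and without E12.5 KO replicate 2 (0.06), E15.5 KO replicate 1 (0.03) or replicate 3 (0.075), and the gap between Nkx2-1 and Nkx2-9 without E12.5 KO replicate 1 (-0.13) or E15.5 KO replicate 2 (-0.30). The ranges with 1 library left out were -0.00055 to 0.42 for the WT change of the gap between Nkx2-9 and Pax9, and in KO -0.18 to 0.53 for Nkx2-1, -0.15 to 0.075 for Pax9 and -0.30 to 0.53 for the gap between Nkx2-1 and Nkx2-9.

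Replicate numbers did not pair the libraries, since 4 of 18 same-number pairs correlated above 0.1 and 4 of 12 libraries correlated best with their own number. With a replicate block 818 windows were called in WT and 190 in KO, and Nkx2-1 had 1.03 and 0.03 in KO against WT at E12.5 and E15.5. With the block the gap towards Mbip passed between stages in WT (0.91, edgeR adjusted p = 0.0381). Merged regions gave no value for the other 2 gaps. The shallow libraries limit what could be called at weak regions, and a missing interval does not show that the mark is absent.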
